A study of Drosophila melanogaster with 12 samples.

Results

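The 9 genes described here are the core of c-Jun N-terminal kinase (JNK) signaling in *Drosophila*, with AP-1 and the matrix metalloproteases. They are the ligand gene *egr*, the receptor gene *grnd*, the kinase genes *hep* and *bsk*, the AP-1 genes *Jra* and *kay*, the phosphatase gene *puc* and the protease genes *Mmp1* and *Mmp2*. The members were taken by FlyBase symbol from the 15682 gene IDs of the count files. No threshold on their values was used, but earlier results of these data were known when they were chosen. All 9 were found, and all 9 were among the 9966 genes tested.

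Nuclear RNA was sequenced from affinity-enriched glial nuclei of eye-brain complexes dissected from wandering larvae of the third instar, with 4 libraries for each of 3 genotypes. In every genotype *repo*-GAL4, a driver active in most glia, expressed UAS-GFP-Msp300KASH from the attP2 site in a *w* background. Nuclei with this GFP on their envelope were enriched by affinity. The study describes an enrichment, with contaminating neuronal RNA reduced but not absent. Wild-type larvae carried both transgenes on the same copy of chromosome 3, over the balancer TM3, Sb1. *nonstop* larvae were homozygous for the P-element allele *not02069* with *ry506*, and *sgf11* larvae were homozygous for the piggyBac insertion *CG13379e01308*. In both mutants the driver lay on one copy of chromosome 3 and the UAS transgene on the other. Both mutated genes encode subunits of the SAGA deubiquitinase module, which removes ubiquitin from histone H2B, and the study asked which genes this module regulates in glia. Wild-type larvae thus carried a balancer that the mutants lacked, so the mutated gene and the genetic background cannot be told apart, least of all for genes on chromosome 3, such as *puc* and *kay*. Each library came from the pooled complexes of many larvae, and since the RNA is a pool, fewer nuclei of a glial type and less RNA per nucleus cannot be told apart.

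JNK is a stress kinase of the MAP kinase family. In *Drosophila* the TNF ligand Eiger binds receptors such as Grindelwald and starts a kinase cascade that ends with Hemipterous, which activates the JNK Basket. Basket phosphorylates Jun, the *Jra* product, which with Fos, the *kay* product, forms AP-1. AP-1 activates genes for wound closure and tissue remodeling, among them *puc*, whose product dephosphorylates Basket in a negative feedback, and *Mmp1*. In glia of the adult brain this pathway responds to axon injury, and in imaginal discs it acts in wound closure. A count of *puc* or *Mmp1* transcripts is therefore often read as output of the pathway, while phosphorylation, which these data do not measure, sets its activity.

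The check of the mutated genes went with the labels. *not* was at 26.8 ± 2.43 CPM (gene counts on a common library size, scaled by TMM) in wild type and at 9.80 ± 0.91 CPM in *nonstop* (SD, n = 4 each), and *Sgf11* had 2 counts over the 4 *sgf11* libraries. *not* was also lower in *sgf11* (17.2 ± 2.57 CPM). Gene counts ranged from 6913032 to 11459317 per library. All 12 glial markers examined had a mean over 1 CPM in every genotype, and their summed level was 4998 to 8347 CPM over all libraries. Neuronal markers were also present, and 4 of 6 (*Appl*, *Syt1*, *brp* and *nSyb*) rose in both mutants, where 13.1% of all genes tested did. However, the calls of *brp* in *sgf11* and of *nSyb* in both mutants were lost with single libraries left out. *elav* (0.31 in *nonstop* and -0.02 in *sgf11* on the log2 scale) and *fne* (-0.25 and -0.30) were not called in either mutant. The 6 neuronal markers summed to 540 to 721 CPM in wild type, 742 to 908 CPM in *nonstop* and 671 to 837 CPM in *sgf11*.

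The genes lie on several chromosome arms. In the BDGP6 annotation, which gave positions and exon lengths while the authors counted on BDGP5, *bsk* (FBgn0000229) is at 2L:10247502-10250501 on the minus strand, *hep* (FBgn0010303) at X:13079205-13090434 on the minus strand, and *grnd* (FBgn0032682) at 2L:18485417-18488021 on the plus strand. *puc* (FBgn0243512) is at 3R:8105332-8122294 and *kay* (FBgn0001297) at 3R:29765995-29794113, both on the plus strand. On arm 2R, *Jra* (FBgn0001291) is at 2R:10096480-10098556 and *egr* (FBgn0033483) at 2R:10078366-10084210 on the plus strand, while *Mmp1* (FBgn0035049) is at 2R:24671294-24688184 and *Mmp2* (FBgn0033438) at 2R:9611139-9683858 on the minus strand. Reads were counted over exons with no regard to strand. Where both genes are in the count files, reads over exon bases they share count for neither. Other reads of an overlapping gene, such as those of its introns, can enter the count of a member where they fall on its exons. *grnd* shares 13.1% of its exon bases with *kon*, *Mmp1* 5.87% with *Pof*, *Mmp2* 5.67% with an antisense RNA and *Jra* 2.38% with *RpLP0-like*. The antisense RNA is not in the count files, so its reads over the shared bases can enter the count of *Mmp2*. *bsk*, *hep*, *puc*, *kay* and *egr* share none.

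The 9 transcripts were present at unequal levels in wild-type glia. Levels per exon length are given as FPKM, the CPM divided by the exon length in kilobases. *egr* was highest, at 71.7 ± 3.73 FPKM (SD, n = 4), above 95.5% of the 9476 tested genes that have an exon length. *Mmp2* followed at 59.1 ± 5.98 FPKM, *puc* at 52.8 ± 10.9 FPKM and *Mmp1* at 41.3 ± 10.7 FPKM, all above 91.2% or more of these genes. *bsk* (28.6 ± 3.03 FPKM) and *kay* (26.7 ± 2.13 FPKM) were close to each other. *Jra* was at 16.6 ± 0.977 FPKM, *hep* at 11.6 ± 1.45 FPKM and *grnd* at 6.16 ± 0.649 FPKM, which is near the middle of all genes (50.1% lie below it). The ligand transcript was thus at a far higher level than the transcript of its receptor, and *kay* at a higher level than its partner *Jra* in each wild-type library. Wild-type ranges of neighbours in this order overlapped for *Mmp2* and *puc*, *puc* and *Mmp1*, *Mmp1* and *bsk*, and *bsk* and *kay*, and did not overlap for the other 4 neighbouring pairs. In both mutants *puc* had the highest mean, at 82.2 ± 12.3 FPKM in *nonstop* and 69.2 ± 6.39 FPKM in *sgf11*, and its range overlapped that of *egr* in each (69.0 ± 14.4 and 69.1 ± 13.7 FPKM). The mean of *kay* lay above that of *bsk* in both mutants, with overlapping ranges in *nonstop* and ranges that did not overlap in *sgf11*.

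**Figure D1:**
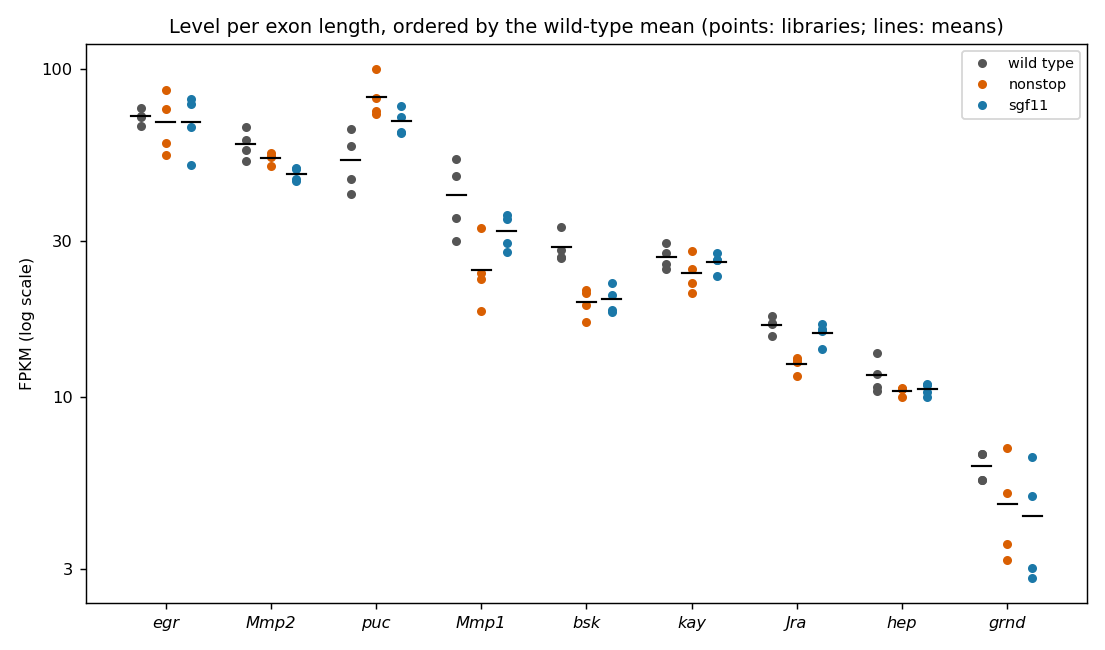
Level of each gene per exon length (FPKM, log scale) in the 12 libraries, with genes ordered by the wild-type mean, points for libraries and lines for group means. *egr* leads in wild type at 71.7 FPKM and *grnd* is lowest at 6.16 FPKM, while *puc* leads in both mutants.

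Of the 9 genes, 4 passed the test in *nonstop* glia, with *puc* higher and *bsk*, *Jra* and *Mmp1* lower than in wild type. In *sgf11* glia 1 passed, *bsk*, which was lower. Genes were called by edgeR's quasi-likelihood test at a false discovery rate (FDR) below 0.01, adjusted over all 9966 genes. Of all genes tested, 18.7% were called higher and 17.0% lower in *nonstop*, and 16.4% higher and 14.1% lower in *sgf11*, so calls in either direction were common in these mutants. The median log2 fold change of the 9 genes was -0.16 in *nonstop* and -0.14 in *sgf11*, beside 0.01 and 0.02 for all genes tested. Groups did not overlap for 3 of the 9 in *nonstop* and for 2 in *sgf11*, where 42.9% and 39.5% of all genes tested had groups that did not overlap. The 4 wild-type libraries serve in both comparisons, which are thus not independent of each other.

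**Figure D2:**
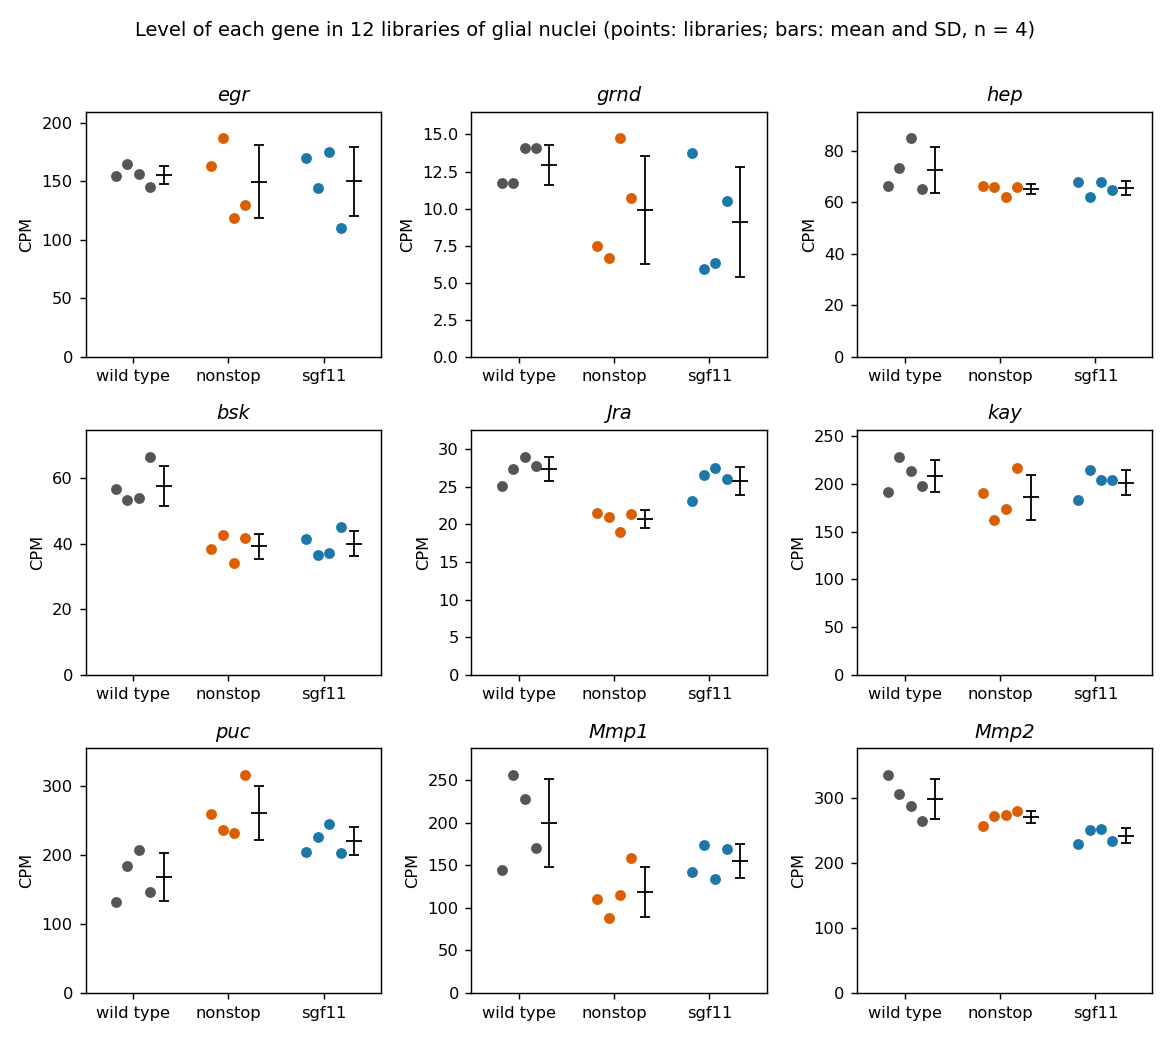
CPM of each of the 9 genes in the 4 libraries of each genotype, with points for libraries and bars for the mean and SD. *bsk* is lower in all 8 mutant libraries (34.1 to 45.0 CPM) than in every wild-type library (53.5 to 66.6 CPM), and *puc* in *nonstop* (232 to 316 CPM) lies above wild type (132 to 207 CPM).

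The ligand and receptor transcripts did not pass the test in either mutant. *egr*, the TNF gene, was at 154, 165, 156 and 145 CPM in wild type, at 163, 186, 119 and 129 CPM in *nonstop*, and at 169.7, 144, 175 and 110.3 CPM in *sgf11*. The mutant libraries thus lay on both sides of the narrow wild-type range, and the coefficient of variation was 5.20% in wild type against 20.8% in *nonstop* and 19.8% in *sgf11*. Its log2 fold change was -0.06 in *nonstop* (95% interval -0.36 to 0.25, FDR = 0.773) and -0.05 in *sgf11* (-0.36 to 0.26, FDR = 0.801). *grnd*, a TNF receptor gene, was at 11.7, 11.8, 14.1 and 14.1 CPM in wild type, at 7.46, 6.67, 14.7 and 10.7 CPM in *nonstop*, and at 13.8, 5.92, 6.31 and 10.5 CPM in *sgf11*. In each mutant 1 library was within or above the wild-type range and the other 3 were below all of them. The log2 fold change of *grnd* was -0.38 in *nonstop* (-0.92 to 0.15, FDR = 0.224) and -0.47 in *sgf11* (-1.01 to 0.07, FDR = 0.144). These wide intervals go with counts of 39 to 149 per library, the fewest of the 9 genes.

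The transcript of the JNK itself fell in both mutants, while that of the kinase above it did not pass the test. *bsk* was at 56.8, 53.5, 53.9 and 66.6 CPM in wild type, at 38.4, 42.7, 34.1 and 41.7 CPM in *nonstop*, and at 41.4, 36.6, 37.2 and 45.0 CPM in *sgf11*. Every mutant library was below every wild-type library, and the 2 mutants overlapped each other. In *nonstop* its level fell by 31.9%, a log2 fold change of -0.55 (SE 0.11, FDR = 4.38e-04). In *sgf11* it fell by 30.5%, a log2 fold change of -0.52 (SE 0.11, FDR = 8.63e-04). The means were 57.7 ± 6.12 CPM in wild type, 39.2 ± 3.86 CPM in *nonstop* and 40.1 ± 3.95 CPM in *sgf11* (SD, n = 4 each). *bsk* kept its call in both mutants under each of the 22 alternative settings tried. *hep*, the JNK kinase gene, was at 66.5, 73.2, 84.8 and 65.0 CPM in wild type, at 66.2, 65.7, 62.1 and 66.0 CPM in *nonstop*, and at 67.8, 62.0, 67.9 and 64.6 CPM in *sgf11*. Mutant libraries lay within or just under the lower part of the wild-type range. The log2 fold change of *hep* was -0.15 in *nonstop* (-0.35 to 0.04, FDR = 0.188) and -0.14 in *sgf11* (-0.34 to 0.06, FDR = 0.239). These intervals overlapped those of *bsk*, -0.78 to -0.33 in *nonstop* and -0.75 to -0.30 in *sgf11*.

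Of the 2 AP-1 genes, *Jra* passed the test in *nonstop* and *kay* in neither mutant, and their intervals in *nonstop* overlapped (-0.61 to -0.18 for *Jra*). *Jra*, the Jun gene, was at 25.1, 27.3, 29.0 and 27.7 CPM in wild type, at 21.5, 21.0, 19.0 and 21.3 CPM in *nonstop*, and at 23.1, 26.5, 27.4 and 26.0 CPM in *sgf11*. All 4 *nonstop* libraries were below all 8 others, and *sgf11* overlapped wild type. *Jra* fell in *nonstop* (log2 fold change -0.40, SE 0.10, FDR = 0.00377), from 27.3 ± 1.60 to 20.7 ± 1.17 CPM, and had a log2 fold change of -0.09 in *sgf11* (-0.30 to 0.13, FDR = 0.514). The call in *nonstop* is sensitive to single libraries: it was lost without wild-type library 2 (-0.37, FDR = 0.0121), 3 (-0.34, FDR = 0.0161) or 4 (-0.37, FDR = 0.0129) or *nonstop* library 3 (-0.37, FDR = 0.0115). With all libraries present, it was lost with TMM factors computed on the 3633 deposited gene IDs (-0.25, FDR = 0.0481). The same held with only genes of a mean log2 CPM above 4.5 (-0.25, FDR = 0.0296). *kay*, the Fos gene, was at 192, 229, 214 and 198 CPM in wild type, at 191, 162, 174 and 217 CPM in *nonstop*, and at 183, 214, 204 and 204 CPM in *sgf11*. The 3 groups overlapped. Its log2 fold change was -0.16 in *nonstop* (-0.38 to 0.06, FDR = 0.207) and -0.05 in *sgf11* (-0.26 to 0.17, FDR = 0.738).

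*puc*, the JNK phosphatase gene and the usual readout of JNK signaling in flies, was the gene of this set that rose. It was at 132, 184, 207 and 146 CPM in wild type, at 259, 235, 232 and 316 CPM in *nonstop*, and at 204, 226, 245 and 202 CPM in *sgf11*. All *nonstop* libraries were above all wild-type libraries, whereas 2 *sgf11* libraries were below the highest wild-type library. The rise in *nonstop* was 1.56-fold (log2 fold change 0.64, SE 0.14, FDR = 0.00108), from 168 ± 34.5 to 261 ± 39.1 CPM (SD, n = 4 each). In *sgf11* the log2 fold change was 0.39 (SE 0.14, 0.10 to 0.68, FDR = 0.0294), which did not pass. Without wild-type library 3, the highest of its group, *puc* was called in *sgf11* as well (0.52, FDR = 0.00557). With library size alone in place of TMM, which moves the median of all genes by -0.13 in *nonstop*, *puc* lost its call there (0.51, FDR = 0.0159).

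The metalloprotease genes had negative fold changes in both mutants, and 1 of these 4 values passed the test. *Mmp1*, which encodes a protease that cleaves extracellular matrix and is induced by JNK in wounds and invading cells, was at 145, 257, 229 and 170.2 CPM in wild type, at 110.5, 88.5, 116 and 159 CPM in *nonstop*, and at 142, 174, 134 and 169 CPM in *sgf11*. The highest *nonstop* library was above the lowest wild-type library, so these groups overlapped. In *nonstop* the level of *Mmp1* fell by 40.7% (log2 fold change -0.75, SE 0.18, FDR = 0.00226), while in *sgf11* the log2 fold change was -0.37 (-0.74 to 0.01, FDR = 0.104). The call in *nonstop* was lost without wild-type library 2 (-0.59, FDR = 0.0161) or 3 (-0.66, FDR = 0.0118), the highest of that group. It was also lost with all libraries present, with TMM factors computed on the deposited gene IDs (-0.59, FDR = 0.0126) and with only genes of a mean log2 CPM above 4.5 (-0.60, FDR = 0.0134). *Mmp2*, which encodes a membrane-anchored protease of the same family, was at 337, 307, 288 and 265 CPM in wild type, at 257, 273, 275 and 280.0 CPM in *nonstop*, and at 230.2, 251, 253 and 235 CPM in *sgf11*. Here all *sgf11* libraries were below all wild-type libraries. The log2 fold change of *Mmp2* was -0.30 in *sgf11* (SE 0.09, FDR = 0.0134), just short of the threshold, and -0.14 in *nonstop* (-0.34 to 0.05, FDR = 0.217). DESeq2 (FDR = 0.00112) and edgeR's exact test (FDR = 0.00988) called *Mmp2* lower in *sgf11*. Without wild-type library 4 *Mmp2* was called there too (-0.35, FDR = 0.00737). Of 22 alternatives 6 called *Mmp2* in *sgf11* and 16 did not, with log2 fold changes from -0.36 to -0.18. Blood cells and tracheae can lie in the dissected tissue. The summed level of 6 blood cell markers was 30.9 to 54.4 CPM in wild type, 31.4 to 76.4 CPM in *nonstop* and 31.1 to 132 CPM in *sgf11*. For 4 tracheal markers it was 85.1 to 142, 91.7 to 184 and 71.1 to 127 CPM. No marker of either list was called, and their part in these values was not tested.

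**Figure D3:**
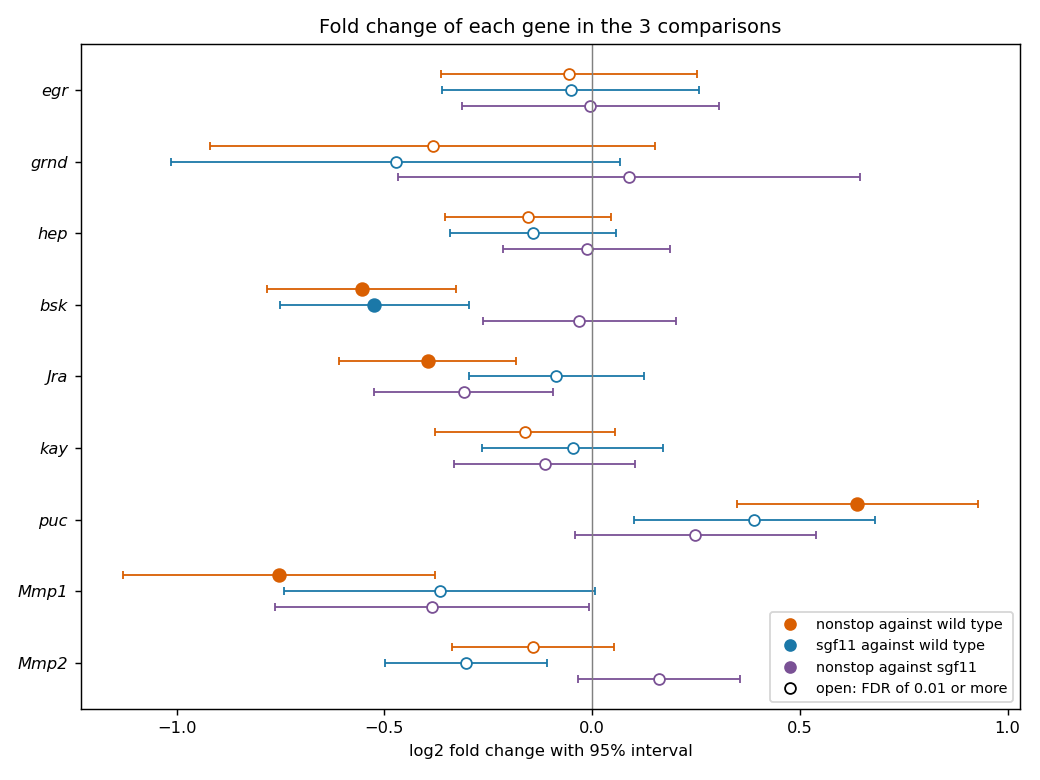
Log2 fold change of each gene, with its 95% interval, in *nonstop* against wild type, *sgf11* against wild type and *nonstop* against *sgf11*. Filled points passed an FDR of 0.01: *bsk* (-0.55 and -0.52) in both mutants, and *Jra* (-0.40), *puc* (0.64) and *Mmp1* (-0.75) in *nonstop*.

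With the mutants set directly against each other, 0 of the 9 genes passed an FDR of 0.01 by edgeR's quasi-likelihood test, and edgeR's exact test and DESeq2 also called 0. At an unadjusted p under 0.05 there were 2, *Jra* and *Mmp1*. Of all genes tested 2.11% were called between the mutants, and 17.1% had an unadjusted p under 0.05. *Jra* was lower in *nonstop* than in *sgf11* by a log2 difference of -0.31 (-0.53 to -0.09, FDR = 0.111) and *Mmp1* by -0.39 (-0.76 to -0.01, FDR = 0.280). For *puc* the difference was 0.25 (-0.04 to 0.54, FDR = 0.376) and for *Mmp2* 0.16 (-0.03 to 0.36, FDR = 0.396). Groups did not overlap for *Jra* and *Mmp2*, as for 10.2% of all genes tested. A call in *nonstop* with none in *sgf11*, as for *Jra*, *puc* and *Mmp1*, is thus not shown to be a difference between the mutants. For *bsk* the difference was -0.03 with an interval of -0.26 to 0.20.

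Ratios of 2 genes within a library do not depend on how libraries are scaled, and 4 such ratios, chosen after the values above were seen, are given as a description, with no test. The ratio of *puc* to *bsk* sets the phosphatase transcript against that of the kinase it acts on. In FPKM this ratio was 1.48, 2.19, 2.45 and 1.40 in wild type, 4.29, 3.51, 4.32 and 4.82 in *nonstop*, and 3.14, 3.94, 4.19 and 2.86 in *sgf11*. Every mutant library was above every wild-type library, in *sgf11* as well as in *nonstop*. The mean log2 ratio corresponds to a ratio 2.31-fold higher in *nonstop* and 1.91-fold higher in *sgf11* than in wild type, which restates the higher *puc* and lower *bsk* given above. *kay* to *Jra* was 1.51 to 1.76 in wild type, 1.63 to 2.14 in *nonstop* and 1.57 to 1.70 in *sgf11*, with overlap between all groups. *Mmp1* to *Mmp2* was 0.449 to 0.876 in wild type, 0.339 to 0.594 in *nonstop* and 0.555 to 0.755 in *sgf11*. *egr* to *grnd* was 9.98 to 13.6 in wild type and spread wider in the mutants, from 7.82 to 27.1 in *nonstop* and from 10.2 to 26.9 in *sgf11*. The spread of *egr* to *grnd* in the mutants goes with the low libraries of *grnd* given above.

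**Figure D4:**
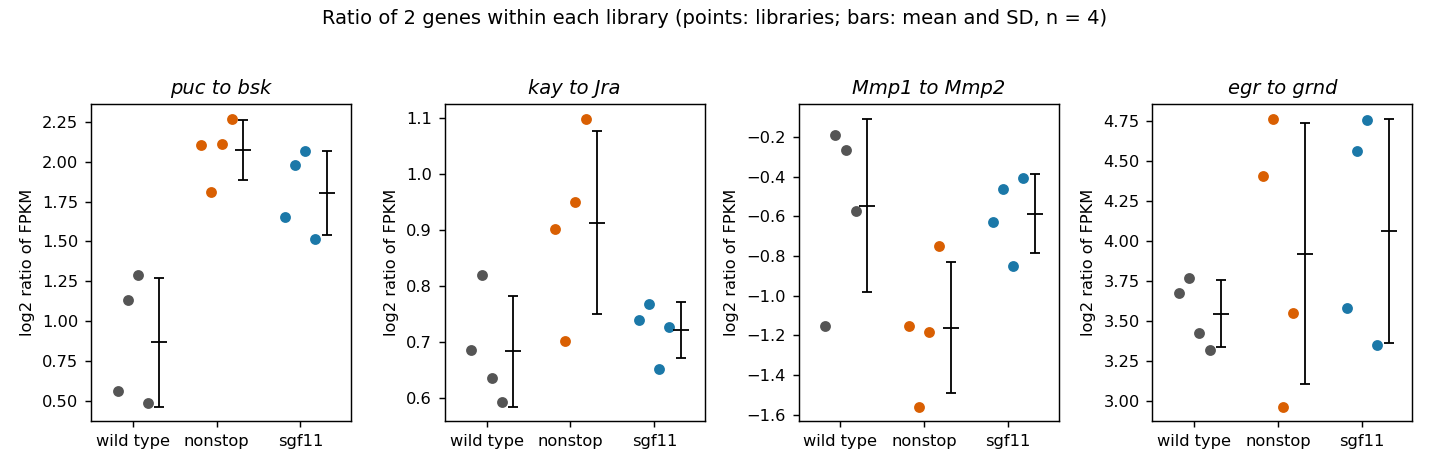
Log2 ratio of the FPKM of 2 genes within each library, with points for libraries and bars for the mean and SD, for *puc* to *bsk*, *kay* to *Jra*, *Mmp1* to *Mmp2* and *egr* to *grnd* (vertical axes do not start at 0). For *puc* to *bsk* the 8 mutant libraries lie above the 4 wild-type libraries, and the groups overlap in the other panels.

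Other genes of the JNK cascade were taken as a list of adapters, upstream kinases, GTPases, scaffolds and inhibitors. Of the 24 that were tested, 7 fell and 0 rose in *nonstop*, and 8 fell and 0 rose in *sgf11*, with 6 lower in both. Among all genes tested 17.0% fell and 18.7% rose in *nonstop*, and 14.1% fell and 16.4% rose in *sgf11*. In both mutants 11.8% were lower and 13.1% higher. The median log2 fold change of this list was -0.08 in *nonstop* and -0.10 in *sgf11*, beside 0.01 and 0.02 for all genes tested. With TMM factors computed on the 3633 deposited gene IDs, which move the median of all genes to 0.15 and 0.14, the list medians were 0.07 and 0.02, above 0 but below those of all genes. With those factors 6 fell and 0 rose in *nonstop*, and 5 fell and 2 rose in *sgf11*. *raw*, which encodes an inhibitor of JNK signaling known from dorsal closure, was at 82.7, 95.5, 89.5 and 78.4 CPM in wild type, at 50.4, 47.5, 42.8 and 49.1 CPM in *nonstop*, and at 47.4, 47.6, 49.1 and 52.5 CPM in *sgf11*. *raw* thus fell beside *bsk*, with a log2 fold change of -0.86 in *nonstop* (SE 0.09, FDR = 1.06e-06) and -0.81 in *sgf11* (SE 0.09, FDR = 2.54e-06). *Uev1A*, whose product works with the ubiquitin-conjugating enzyme Bendless between the TNF receptor and the kinases, fell by 0.60 and 0.54 on the log2 scale (FDR = 8.22e-05 and 2.62e-04). *Rac1*, a GTPase gene upstream of JNK in epithelial closure, fell by 0.69 and 0.80 (FDR = 1.65e-05 and 5.16e-06). *Rac2*, its close paralog, fell by 0.72 in *nonstop* (FDR = 1.12e-04) and had a log2 fold change of -0.34 in *sgf11* (FDR = 0.0289). With the counting used here, reads that align equally well to both *Rac* genes count for neither. *Uev1A*, *Rac1* and *Rac2* lie on chromosome 3, for which wild type carried the balancer, and *raw* lies on arm 2L.

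The p38 kinases form a second stress arm that shares upstream kinases with JNK. Of its 5 tested genes 2 fell in *nonstop* and 1 in *sgf11*, and 0 rose, where 17.0% and 14.1% of all genes tested fell. *Mekk1*, which encodes a kinase that feeds into this arm and is also in the JNK list, fell by 0.48 in *nonstop* and by 0.40 in *sgf11* on the log2 scale (FDR = 2.10e-04 and 0.00110), and lost its call in *sgf11* with TMM factors computed on the deposited gene IDs. *lic*, the p38 kinase kinase gene, fell by 0.54 in *nonstop* (FDR = 0.00195) and had a log2 fold change of -0.39 in *sgf11* (FDR = 0.0190). Its call in *nonstop* was lost under 2 alternatives, TMM factors computed on the deposited gene IDs and a mean log2 CPM above 4.5.

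Of 21 other genes known in flies as injury-induced or JNK-responsive, 9 rose, 2 fell and 10 did not pass the test in *nonstop*. In *sgf11* 9 rose, 0 fell and 12 did not pass, and 8 rose in both mutants. Of all genes tested 18.7% rose and 17.0% fell in *nonstop*, 16.4% rose and 14.1% fell in *sgf11*, and 13.1% rose in both. The genes that fell in *nonstop*, named after their values were seen, were *drpr*, which encodes the engulfment receptor Draper (log2 fold change -0.43, FDR = 0.00590), and *mol* (-0.59, FDR = 0.00485). The median log2 fold change of the list was 0.24 in *nonstop* and 0.41 in *sgf11*, beside 0.01 and 0.02 for all genes tested. With TMM factors computed on the deposited gene IDs 11 rose and 0 fell in each mutant, and with library size alone 7 rose and 2 fell in *nonstop* and 8 rose and 0 fell in *sgf11*. *Ilp8*, which encodes a relaxin-like peptide that damaged discs release to delay metamorphosis, had 2, 2, 0 and 1 counts in wild type, 45, 24, 42 and 75 in *nonstop*, and 154, 133, 69 and 194 in *sgf11*. This is 0.127 ± 0.097 CPM in wild type, 5.25 ± 1.33 CPM in *nonstop* and 17.4 ± 6.59 CPM in *sgf11* (SD, n = 4 each), with FDR = 2.89e-07 and 3.26e-09. *Ilp8* was also lower in *nonstop* than in *sgf11*, by a log2 difference of -1.71 (SE 0.27, FDR = 8.11e-04). *Gadd45*, a stress response gene, rose from 7.14 ± 2.68 CPM in wild type to 16.9 ± 2.93 CPM in *nonstop* and 20.2 ± 1.76 CPM in *sgf11* (SD, n = 4 each), and its mutant libraries were all above its wild-type libraries. *chinmo*, which encodes a transcription factor of neural timing, rose by 1.31 and 1.01 on the log2 scale. *Pvr*, a receptor gene for PDGF- and VEGF-like factors that acts in glial and blood cell migration and for which the study lists qRT-PCR primers, rose by 1.80 and 1.88. The neuronal markers that rose in both mutants moved with this list, while *elav* and *fne* were not called. The part of neuronal RNA in the list was not tested. Fat body markers, whose tissue is a usual contaminant of dissected larval brains, summed to 51.0 to 116 CPM in wild type, 26.2 to 45.5 CPM in *nonstop* and 56.4 to 129 CPM in *sgf11*. These sums hold calls in opposite directions: *Fbp1* was lower in *nonstop* (-4.27) and in *sgf11* (-2.36), while *Lsp1alpha*, *Lsp1beta* and *Lsp2* were higher in *sgf11* (1.37, 1.24 and 1.16) and not called in *nonstop*. Their part in the values of the list, *Ilp8* included, was not tested.

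Other transcription factor genes of the basic leucine zipper class, to which the AP-1 genes also belong, were called in both directions. Of 14 tested, 5 rose and 2 fell in *nonstop*, 7 rose and 3 fell in *sgf11*, and 5 rose and 2 fell in both. Over all genes tested 18.7% rose and 17.0% fell in *nonstop*, 16.4% and 14.1% in *sgf11*, and 13.1% and 11.8% in both. *REPTOR*, which encodes an effector of nutrient signaling through TORC1, rose by 1.26 and 0.97 on the log2 scale (FDR = 2.21e-08 and 6.17e-07). *Pdp1*, which encodes an activator in the circadian clock, rose by 1.73 and 1.46, and *gt*, the gap gene *giant*, rose from 0.913 ± 0.219 CPM to 4.26 ± 0.651 and 4.02 ± 0.767 CPM (SD, n = 4 each). *CrebA*, which encodes a regulator of secretory capacity, fell by 0.96 and 0.87 (FDR = 3.19e-05 and 1.05e-04).

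An inhibitor gene of the metalloproteases, *Timp*, differed between the mutants. *Timp* encodes the tissue inhibitor of metalloproteases, which inhibits Mmp1 and Mmp2. It was at 76.3, 69.95, 55.2 and 56.1 CPM in wild type, at 17.98, 23.8, 17.5 and 15.8 CPM in *nonstop*, and at 57.8, 61.7, 58.5 and 45.4 CPM in *sgf11*. All *nonstop* libraries were far below all others, while *sgf11* overlapped wild type. *Timp* fell in *nonstop* (log2 fold change -1.79, SE 0.14, FDR = 4.41e-08), had a log2 fold change of -0.21 in *sgf11* (SE 0.14, FDR = 0.237), and differed between the mutants by -1.58 (SE 0.15, FDR = 2.09e-06). The *nonstop* libraries thus had lower transcripts of *Mmp1* and of *Timp*. *Reck*, another inhibitor gene of the list, named after its values were seen, fell in *nonstop* (-0.82, FDR = 8.84e-05) and in *sgf11* (-0.76, FDR = 2.43e-04). Between the mutants the difference of *Reck* was -0.07 (FDR = 0.857). *Timp* is at 3R:10203875-10213007 on the minus strand, inside the gene *Syn* on the other strand, with 15.7% of its exon bases shared. Reads over the shared bases count for neither gene, while reads of *Syn* introns over the other exon bases of *Timp* can enter its count. *Timp* lies on the chromosome for which wild type carried the balancer and on which the mutants were homozygous for different alleles.

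Of the 15 tested genes for other metalloproteases and their inhibitors, 3 rose and 4 fell in each mutant, with 3 higher and 3 lower in both. Shares over all genes tested were 18.7% higher and 17.0% lower in *nonstop*, 16.4% and 14.1% in *sgf11*, and 13.1% and 11.8% in both. *kuz*, which encodes the ADAM protease that cleaves Notch, fell from 362, 463, 495 and 390.5 CPM in wild type to 233, 249.6, 232 and 221 CPM in *nonstop* and 271, 249, 298 and 229 CPM in *sgf11* (log2 fold change -0.87 and -0.71, FDR = 8.87e-06 and 8.74e-05). The ADAMTS genes went both ways. *stl* fell from 21.5 ± 5.18 CPM to 3.68 ± 1.37 and 3.12 ± 0.326 CPM, and *AdamTS-B* rose from 39.6 ± 7.74 CPM to 138 ± 14.3 and 139.9 ± 28.9 CPM (SD, n = 4 each, all FDR under 0.01).

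Basement membrane genes, whose products the metalloproteases can cleave, were called in both directions as well. Of 9 tested, 3 rose and 2 fell in *nonstop*, and 3 rose and 1 fell in *sgf11*. Over all genes tested 18.7% rose and 17.0% fell in *nonstop*, and 16.4% rose and 14.1% fell in *sgf11*. *LanA*, a laminin alpha chain gene, rose from 265 ± 28.4 CPM to 576 ± 90.2 and 716 ± 84.9 CPM, and *Ndg*, the nidogen gene, rose from 20.0 ± 5.32 CPM to 59.0 ± 10.96 and 83.4 ± 15.9 CPM (SD, n = 4 each). *wb*, the other laminin alpha gene, rose by 0.82 in *nonstop* (FDR = 1.25e-05) and by 0.39 in *sgf11* (FDR = 0.00787), where the call was lost with any of 8 single libraries left out and under 5 other alternatives. *Mp*, the collagen gene *Multiplexin* that the study picked from these libraries, fell by 1.17 and 0.79 (FDR = 2.32e-06 and 1.50e-04). Blood cells also make basement membrane, and the sums of their markers are those given for the proteases above.

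**Figure D5:**
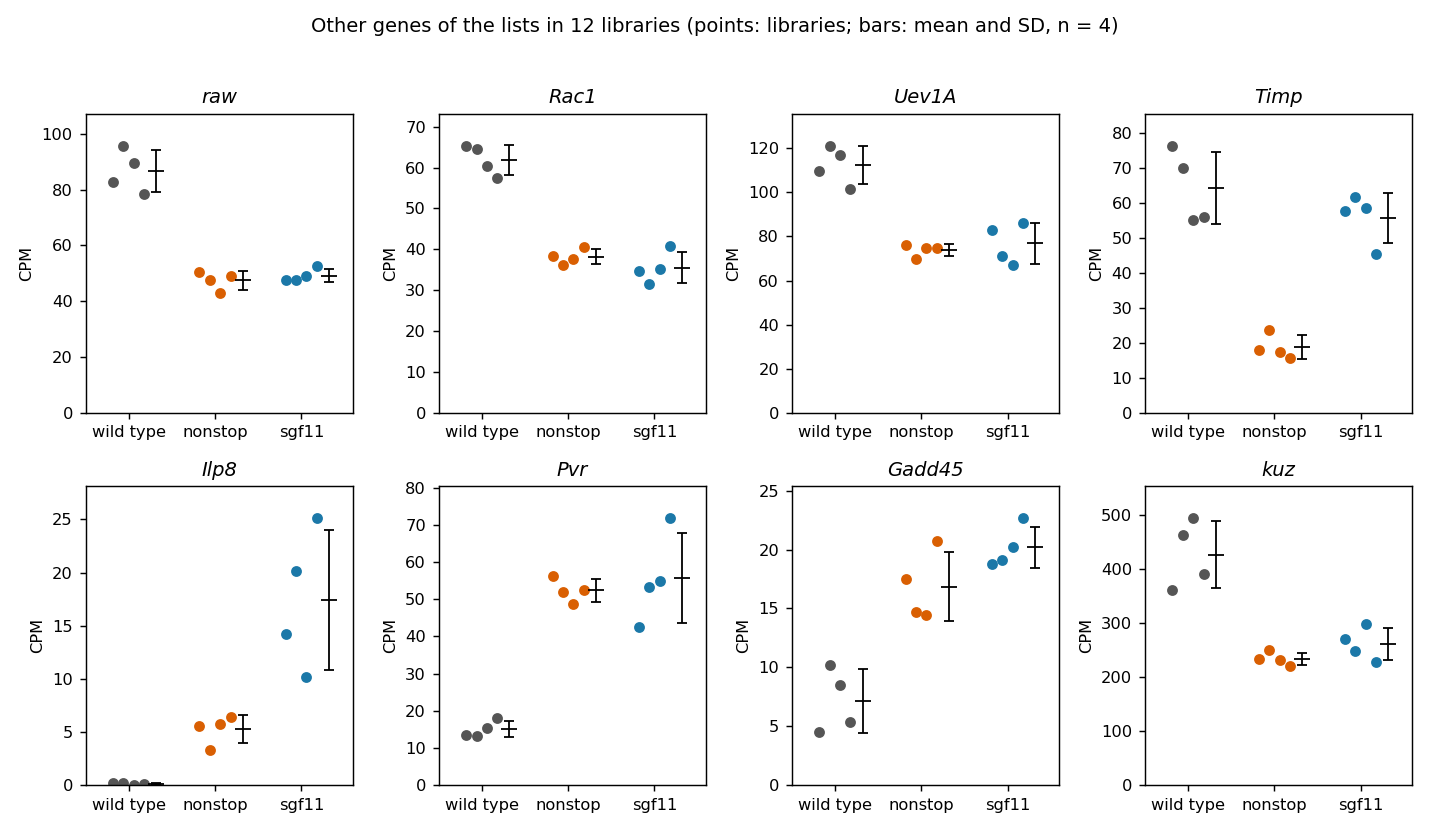
CPM in the 4 libraries of each genotype for 8 genes of the other lists, with points for libraries and bars for the mean and SD. *raw*, *Rac1*, *Uev1A* and *kuz* are lower in both mutants and *Ilp8*, *Pvr* and *Gadd45* higher, while *Timp* is low in *nonstop* (15.8 to 23.8 CPM) and overlaps wild type in *sgf11* (45.4 to 61.7 CPM).

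The genes whose pattern over the 12 libraries was most like that of each called member were found by the root mean square difference of log2(CPM + 1), centred on each gene's mean. For *bsk*, which spread by 0.28 about its own mean, they were the exoribonuclease gene *pcm* at a difference of 0.10, the nucleoporin gene *Nup205* at 0.11 and *CG14442* at 0.11. The median difference of all genes from *bsk* was 0.39. Nearest to *Jra* were the adapter gene *Dab*, the endosomal anchor gene *Sara* and the phospholipase gene *sl*, all at 0.09, with a median of 0.34 over all genes. Nearest to *puc* were the phosphodiesterase gene *Pde9* (0.14), the atypical protein kinase gene *aPKC* (0.15) and FBgn0262735 (0.15), with a median of 0.44. *Mmp1* had no neighbour as close, with *CG32137* at 0.18, *Rab9E* at 0.21 and the transcription factor gene *zfh1* at 0.22, beside a median of 0.49.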

How the data were processed

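Nuclear RNA of glial nuclei was profiled in 12 libraries, 4 for each genotype, grouped by their labels. Replicates were separate pools of dissected tissue. To make the deposited counts, the authors removed low-quality bases (Trimmomatic 0.32), mapped read pairs to BDGP5 (TopHat2 2.0.13, Bowtie2 2.2.4) and counted reads over each gene's exons without strand (HTSeq 0.6.1). Lines that name no gene (96.1 to 96.7% of the total) were set aside, which left 6913032 to 11459317 gene counts for each library. The authors also deposited tables of log2 fold changes, mean log2 CPM, p-values and false discovery rates. None of these values was used, only the 3633 gene IDs, for an alternative set of TMM factors.

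The 9966 genes that exceeded 1 CPM in 4 or more libraries entered a single quasi-likelihood fit by genotype on TMM-scaled counts, without a block (edgeR 4.0.16, limma 3.58.1, R 4.3.3), with Benjamini-Hochberg adjustment over these genes and an FDR threshold of 0.01. SE and 95% interval of a fold change are those of the fit. The fit was checked on simulated counts. Of 100 genes changed 1.5-fold, 27% were recovered in *nonstop* and 25% in *sgf11*, and of 100 changed 2-fold, 85% and 82%. A gene that did not pass can thus still have changed. The simulation held far fewer changed genes than the data, so these shares need not hold for the members. Ratios, chosen after the members' values were seen, are given as descriptions (scipy 1.17.1, numpy 2.4.6, pandas 2.3.3, matplotlib 3.10.9, Python 3.11.15). Symbols, positions and exon lengths are those of Ensembl release 115 on BDGP6, which holds 15002 of the 15682 IDs, and 11 listed symbols without a match are not analysed here.

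The members and gene lists were chosen with earlier results of these data known. Named are all 9 members, up to 4 called genes of each other list with the lowest FDR, the mutated genes, and the 3 genes nearest in pattern to each called member. Overlapping genes are named for their position only, and *GstD1*, *Reck*, *drpr*, *mol*, *elav* and *fne* after their values were seen. Alternatives were edgeR's exact test, DESeq2 1.42.0, other size factors, other filters, an FDR of 0.05, a fit of the 2 groups compared, a replicate block and each library left out in turn.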

Additional observations from a re-analysis of the deposited data

Results flagged for a closer look

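*hep* had 1 *nonstop* library at 62.1 CPM, apart from the other 3, which lay between 65.7 and 66.2 CPM. Of 33 groups of 4 libraries looked at in this way 1 stood out, and chance gives about 1 in 20. The distance is small beside the wild-type range of *hep*.

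Some genes outside the 9 differed between the mutants at an FDR under 0.01 by edgeR's quasi-likelihood test of the difference itself. *Timp* was lower in *nonstop* than in *sgf11* by -1.58 on the log2 scale (FDR = 2.09e-06) and *Ilp8* by -1.71 (FDR = 8.11e-04). *GstD1*, a glutathione transferase gene outside the naming rule and named after its values were seen, was higher in *nonstop* by 0.40 (FDR = 0.00748), a call lost with any of 7 single libraries left out and under 3 other alternatives. The larval serum protein genes *Lsp1beta* (-1.42, FDR = 0.00244), *Lsp2* (-1.51, FDR = 0.00322) and *Lsp1alpha* (-1.66, FDR = 0.00895), which mark fat body, were lower in *nonstop* than in *sgf11*. Against wild type they were called higher in *sgf11* (1.24, 1.16 and 1.37) and not called in *nonstop* (FDR = 0.597, 0.321 and 0.537), while the fat body marker *Fbp1* was lower in both mutants (-4.27 and -2.36). The calls between the mutants were lost with single libraries left out, 2 for *Lsp1beta*, 4 for *Lsp2* and 8 for *Lsp1alpha*. Of the mutated genes, *not* was lower in *nonstop* (-0.82, FDR = 0.00127), and *Sgf11*, with 2 counts in *sgf11*, had a fitted difference of 5.67 (FDR = 2.09e-06), which depends on the prior count.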

How the results depend on the processing

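In *nonstop* 4 of the 9 genes were called. This count was 2 with TMM factors computed on the 3633 deposited gene IDs and 2 with a mean log2 CPM above 4.5, and 2 to 4 with each library left out in turn. In *sgf11* 1 was called. This count was 3 at an FDR under 0.05, 2 with edgeR's exact test, 2 with DESeq2, 2 with TMM factors computed on the 3633 deposited gene IDs, 2 with no filter and 2 with a mean log2 CPM above 4.5, and 1 to 2 with each library left out. Between the mutants it was 0 throughout. With the replicate number as a block 4, 1 and 0 members were called, as without it, and no member's call changed. Same-numbered libraries do not deviate together (correlations of -0.08 to 0.12, 2 of 12 over 0.1), so the numbers do not pair the samples. Of 591 values of the members under alternatives 570 kept their call, 11 lost it, 10 gained one and 0 reversed a call. For the other named genes these numbers were 2260, 72, 14 and 0 of 2346. The cause of these changes was not tested.

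The scaling of libraries sets the balance of directions. Of all calls 52.3% were higher in *nonstop* and 53.8% in *sgf11*. With TMM factors computed on the 3633 deposited gene IDs, which move the median of all genes by 0.15 and 0.12, these shares were 68.7% and 69.2%. With library size alone they were 39.6% and 49.8%. Between the mutants 39.0% of calls were higher in *nonstop*, and 28.2% with library size alone. All genes called between the mutants numbered 210, but 386 at an FDR under 0.05, 343 with the exact test, 335 with DESeq2, 97 with a mean log2 CPM above 4.5 and 136 without *nonstop* replicate 4. With a mean log2 CPM above 4.5, 1780 genes were called in *nonstop* and 1580 in *sgf11*, where 3561 and 3037 were called without it, since fewer genes were tested, and *grnd* was not among them.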

Other observations

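The spread among wild-type libraries was not the same for all members. *Mmp1* (25.8%) and *puc* (20.6%) had the highest coefficients of variation there, and *egr* (5.20%) and *Jra* (5.88%) the lowest. In wild type, libraries 2 and 3 were above libraries 1 and 4 for *hep*, *kay*, *puc* and *Mmp1*. In the mutants the spread of *hep* and *Mmp2* was narrow (2.99 to 4.83%), and that of *grnd* wide (37.1% in *nonstop* and 40.8% in *sgf11*).

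Of the 12 glial markers 3 were called higher and 3 lower in *nonstop*, and 3 higher and 0 lower in *sgf11*. Over all genes tested 18.7% were called higher and 17.0% lower in *nonstop*, and 16.4% and 14.1% in *sgf11*. *alrm* and *Eaat1*, markers of astrocyte-like glia, rose by 1.11 and 0.71 on the log2 scale in *nonstop* and by 1.42 and 0.76 in *sgf11*. *spin* and *loco* fell by 0.60 and 0.40 in *nonstop*. The calls of *Eaat1* and of *loco* were lost with single libraries left out. The part of such shifts among glial types in the values of the 9 genes was not tested.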
